A study of Rattus norvegicus with 12 samples.

Results

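The dorsal spinal cord was compared between the lumbar enlargement and a segment above it on 4 of the 12 single-colour arrays of the series, 2 lumbar and 2 thoracic, paired within each rat type. In wild-type rats and in athymic nude rats, the sciatic nerve had received MBP84-104, a peptide of myelin basic protein, at 50 µg in 5 µL. Each array held labelled RNA from the dorsal part of the left side of the cord, pooled from 3 animals. All rats were females of 8 weeks. The wild-type rats were Sprague-Dawley rats taken 12 days after the injection, and the nude rats (Hsd:RH-Foxn1rnu, rnu-/-) were taken 7 days after it. These strains and days are those of the labels, whereas the study's text gives the same time for both rat types and names heterozygous rnu+/- rats as controls in its behavioral tests, so that neither the day nor the strain of the wild-type arrays is certain. Foxn1 directs development of the thymus, so nude rats lack mature T cells. The labels call the control segment cord above the lumbar enlargement, and the study's text calls it thoracic.

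The question behind the comparison was what differs in the cord segment that receives the input of the injected nerve. Segment and injection cannot be told apart here, because no array held lumbar cord of an uninjected rat. Strain, day and slide changed together with the rat type, since both nude cord arrays lay on slide 1 and both wild-type cord arrays on slide 2. There was 1 array per segment and rat type, so that within a rat type no difference has a test. Fewer cells of a type and less RNA per cell cannot be told apart in pooled tissue either.

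The dorsal horn is the part of the cord where sensory axons of the dorsal roots end on excitatory and inhibitory interneurons, many of which release peptides. Around it lie white matter tracts, whose myelin is made by oligodendrocytes, whereas Schwann cells make the myelin of the roots and of peripheral nerve. Position along the cord is written in the Hox genes, of which those with higher paralog numbers are active further towards the tail.

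The tissue labels were checked first. Snap25, a synaptic protein of neurons, had log2 levels between 6.96 and 7.24 on the 4 cord arrays, where a level of 0 is the median of an array's probes. Gfap, the intermediate filament of astrocytes, had levels from 4.40 to 6.35 on cord arrays and from −0.41 to −0.18 on sciatic nerve arrays. Slc17a6 and Slc32a1, the vesicular transporters for glutamate and for GABA and glycine, were well above background on all 4 arrays. Detection alone is no tissue check, since Slc32a1 also passed on 4 nerve and 4 DRG arrays, and Slc17a6 on 3 and 4. Levels of Slc17a6 were 5.60 to 6.05 in cord, −1.89 to 0.17 in nerve and 4.36 to 4.68 in DRG. Those of Slc32a1 were 5.93 to 6.78, 1.90 to 2.36 and 1.02 to 1.68. Scn10a, the sodium channel of pain-sensing dorsal root ganglion (DRG) neurons, was well above background on no cord array and had levels of 5.24 to 5.38 on the 4 DRG arrays. The fat cell hormone Adipoq was also well above background on no cord array. The T cell receptor subunit Cd3e was so on no cord, nerve or DRG array, so it cannot serve as a tissue check. Chat, the acetylcholine synthesis enzyme of motor neurons, passed on 2 cord arrays only and was not tested.

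In all, 10574 genes were measured, that is, were well above background on both lumbar or both thoracic arrays. The limma fit, paired within rat type, called 912 of them (8.62%) at an adjusted p under 0.05, of which 238 (2.25%) were higher and 674 (6.37%) were lower in the lumbar cord. Of 19805 probes 1457 were called (7.36%). The calls rest on pooling the spread over genes of like brightness, since a gene alone leaves 1 degree of freedom. Without that brightness trend no gene was called, although 2391 had an unadjusted p under 0.05, and without the pairing 44 were called. With trend and pairing, 2904 of the 10574 genes had an unadjusted p under 0.05. List counts at that limit are read against this number. Of the calls 26.1% were higher in the lumbar cord, and this share was 44.9% after scaling to the 75th percentile, 43.0% after quantile normalization, 40.8% after cyclic loess and 40.9% in the authors' normalized values. Against 238 here, genes called higher numbered 560, 469, 312 and 376 in these settings, in that order. They numbered 206 after normexp background correction and 179 with the probes of each gene averaged. List counts of genes called higher in other settings are read against these totals.

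With a limit of 2-fold, 97 genes were higher (0.917%) and 84 lower (0.794%) in the lumbar cord of wild-type rats, together 1.71% of all genes measured. In nude rats 65 were higher (0.615%) and 58 lower (0.549%), together 1.16%. The limit was passed in both rat types by 23 genes that were higher (0.218%) and 20 that were lower (0.189%). These 43 genes (0.407%) were 23.8% of the wild-type list and 35.0% of the nude list. Of all genes 24.1% were higher in both, 46.3% lower in both and 29.7% of opposite sign. Across all genes the log2 ratios of the 2 rat types had a Pearson r of 0.544, as a description over genes that are not independent. The gene nearest the limit inside it had a smaller log2 ratio of 1.00, and the nearest outside had 0.995.

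**Figure D1:**
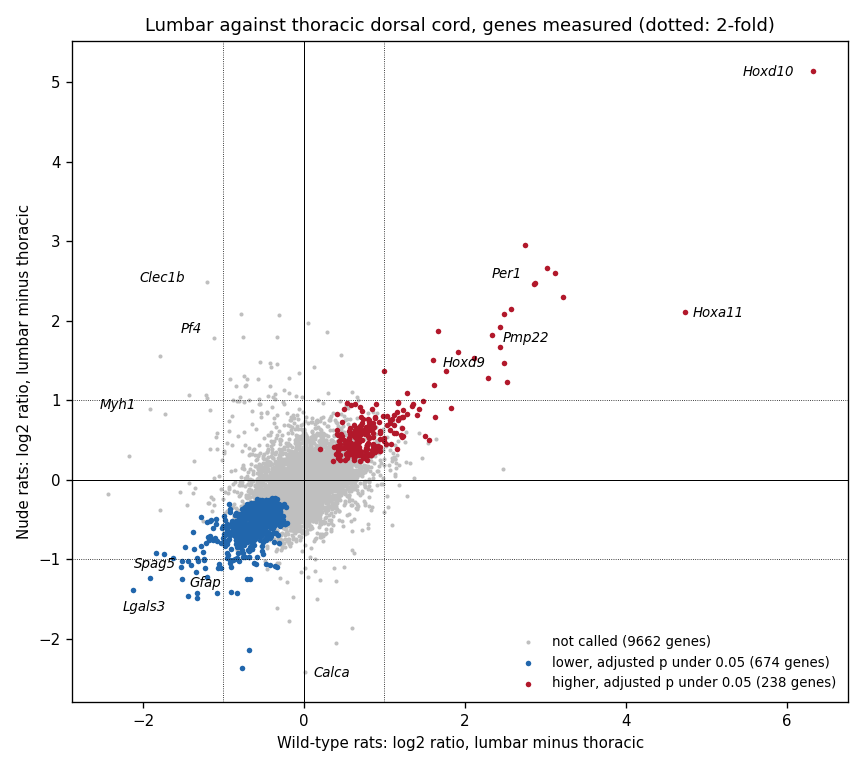
Log2 ratio of lumbar to thoracic dorsal cord in wild-type rats (x axis) and nude rats (y axis), 1 point per gene, with genes called by limma in colour and dotted lines at 2-fold. Hoxd10 lies far from all others at 6.32 and 5.14, the Schwann cell gene Pmp22 lies at 2.34 and 1.82, Lgals3 lies at −2.12 and −1.38, and Clec1b, Pf4 and Calca lie off the diagonal.

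The Hox genes Hoxd10 and Hoxa11 had the largest mean log2 ratios of the genes that passed 2-fold in both rat types. The array carried 20 of 39 listed Hox genes and 12 were measured. Of these, 5 were called higher in the lumbar cord, 0 were called lower and 7 were not called. Of all genes 2.25% were called higher and 6.37% lower. Hoxd10, a transcription factor of the lumbar segments, had a log2 level of 4.23 on the wild-type and 3.20 on the nude lumbar array, against −2.10 and −1.95 on the thoracic arrays. It was well above background on both lumbar arrays and on no thoracic array, so its level there is only a limit, and the lumbar level was at least 53.2-fold higher (adjusted p = 7.38e-05). Such limits were set against the dimmest signal that counted as well above background on the same array, or the gene's own signal if brighter. Genes whose thoracic level is such a limit passed the filter through their lumbar arrays alone, so their adjusted p is not independent support. When only genes well above background on all 4 arrays were fitted, 1 Hox10 to Hox13 gene was measured and 0 were called. Hoxa11 was also seen only in the lumbar cord, with levels of 2.13 for wild-type and 0.16 for nude rats against −2.61 and −1.95, at least 10.7-fold higher (adjusted p = 0.0103). Its 2 lumbar values lay further apart than those of Hoxd10.

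Hoxd9 was present in both segments, at 5.10 and 4.60 in the lumbar and 3.49 and 3.10 in the thoracic cord of wild-type and nude rats. The lumbar level was 2.93-fold higher (log2 ratio 1.55 ± 0.09, SE of the limma fit, adjusted p = 0.000233). Each SE given after ± draws mainly on other genes of like brightness, with 6.78 degrees of freedom from these against 1 from the gene. It is not the observed spread between the 2 pairs. Hoxb8, which is active further towards the head, was 1.85-fold higher, at 2.07 and 2.02 against 0.86 and 1.46 (adjusted p = 0.0197). Hoxc4 was 1.77-fold higher, at 0.98 and 0.81 against 0.05 and 0.09 (adjusted p = 0.016). For each of these 3 genes both lumbar arrays lay above both thoracic arrays, a description of genes already called.

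The other 7 measured Hox genes did not pass the test. Hoxb7 had log2 ratios of 0.24 for wild-type and 0.29 in nude rats (adjusted p = 0.0823), and Hoxd1 had −0.76 and −0.63 (adjusted p = 0.0825). Hoxa2, Hoxb4, Hoxd4, Hoxa7 and Hoxd12 had mean log2 ratios between −0.23 and 0.20. Hoxd12, the most posterior gene of the set, was dim on all 4 arrays, from −1.49 to −1.11. Among partners of Hox proteins and other axial regulators, 1 of 10 measured genes was called, beside 8.62% of all genes. It was Pbx3, which was 1.42-fold lower (adjusted p = 0.0208).

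**Figure D2:**
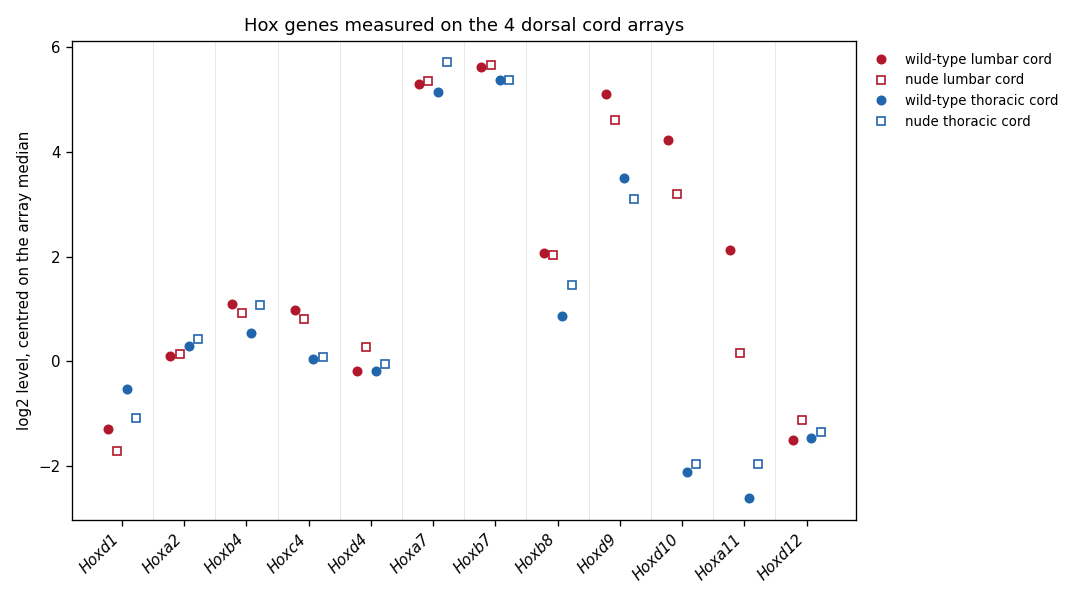
Log2 levels, centred on the median of each array, of the 12 measured Hox genes on the 4 cord arrays, ordered by paralog number. Lumbar points (red) separate from thoracic points (blue) for Hoxc4, Hoxb8, Hoxd9, Hoxd10 and Hoxa11, and the thoracic points of Hoxd10 and Hoxa11 are limits near −2.

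Hoxd9 and Hoxd10 are neighbours whose starts lie 6059 bases apart on chromosome 3 in GRCr8 (RefSeq), and they had the smallest adjusted p among the Hox genes. The 250 bases before each start, on the plus strand, are shown with the E-box letters CACGTG in capitals, the only match in each.
Hoxd10 (chr3:80001697-80001946): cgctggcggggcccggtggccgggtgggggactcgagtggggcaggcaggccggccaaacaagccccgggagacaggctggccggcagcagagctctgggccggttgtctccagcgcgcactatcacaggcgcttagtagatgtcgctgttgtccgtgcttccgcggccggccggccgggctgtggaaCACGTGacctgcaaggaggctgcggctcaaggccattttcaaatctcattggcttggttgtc
Hoxd9 (chr3:80007756-80008005): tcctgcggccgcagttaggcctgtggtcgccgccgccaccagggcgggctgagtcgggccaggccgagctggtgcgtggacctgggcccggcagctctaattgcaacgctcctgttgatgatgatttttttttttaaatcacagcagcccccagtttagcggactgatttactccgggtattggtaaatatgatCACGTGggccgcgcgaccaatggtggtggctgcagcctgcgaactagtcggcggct

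The match began 62 bases before the start of Hoxd10 and 56 bases before that of Hoxd9. CACGTG is its own reverse complement, and 5.79% of 27457 promoters hold it in this window. Of the 9 measured Hox genes with an entry, 4 held it, namely Hoxd1 and Hoxa7, which were not called, besides Hoxd9 and Hoxd10. The letters TCACNCCAC, a form bound by sterol regulators, stood in 0 of 16 cholesterol synthesis promoters on either strand and in 0.976% of all. The letters GCGNGGGCG, a form bound by EGR factors, stood in 0 of 7 Schwann cell promoters and in 4.53% of all. CACCCCAC stood in 1 of 16 cholesterol synthesis promoters, that of Ebp, and in 2.24% of all. ACAAAGA stood in 1 of 9 Hox promoters, that of Hoxa11, in 2 of 17 promoters of the genes 2-fold higher in both rat types, those of Hoxa11 and Ccl7, and in 5.21% of all. A match is a string of letters and no measurement of binding.

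Genes of Schwann cells and peripheral myelin were also higher in the lumbar cord. All 11 listed genes on the array were measured, of which 7 were called higher and 2 lower, beside 2.25% and 6.37% of all genes. The list's median log2 ratio was 2.28 for wild-type and 1.28 for nude rats, against −0.06 and −0.08 over all genes. The median of the mean ratios, 1.78, was 0.67 after normexp background correction, with 8 called higher and 1 lower. When only genes well above background on all 4 arrays were fitted, 8 were measured, of which 5 were called higher and 2 lower. Pmp2, a lipid carrier of peripheral myelin, had levels of 6.22 and 5.88 in the lumbar cord of wild-type and nude rats against 3.47 and 2.93 in the thoracic cord. Pmp2 was thus 7.23-fold higher (log2 ratio 2.85 ± 0.09, adjusted p = 3.28e-05).

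Prx, the scaffold protein periaxin, had levels of 2.83 and 2.65 against −0.29 and 0.05 and was 7.25-fold higher (adjusted p = 0.00015). Pmp22, a membrane protein of compact peripheral myelin, had levels of 8.36 and 8.08 against 6.01 and 6.26 and was 4.24-fold higher (adjusted p = 0.00021). Egr2, the transcription factor that switches on myelin genes in Schwann cells, had levels of 0.14 and −0.18 against −2.35 and −1.65. Being well above background on 1 thoracic array only, Egr2 passed the filter through its lumbar arrays alone. It was 3.95-fold higher in the fit (adjusted p = 0.00803), which is not independent support. For each of these genes both lumbar arrays lay above both thoracic arrays, a description of genes already called.

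Drp2, a partner of periaxin, was at least 2.58-fold higher (adjusted p = 0.0301), being well above background on the lumbar arrays only. The nerve growth factor receptor Ngfr and the cadherin Cdh19 had mean log2 ratios of 0.62 and 0.48 and did not pass the test, the thoracic level of Cdh19 being a limit. Fabp7 and Plekhb1, which glia of the cord also express, were called lower, with ratios of −0.68 and −0.29. The summed level of the whole list, to which these bright genes belong, did not separate the segments, at 1540 and 1590 on the lumbar and 1550 and 1560 on the thoracic arrays, in multiples of the array median.

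The peripheral myelin genes were brighter on the sciatic nerve arrays than in either cord segment. Pmp2 had levels of 8.15 to 9.76 on the 4 nerve arrays and of 7.96 to 9.04 on the DRG arrays, and Pmp22 of 10.58 to 11.48 on the nerve arrays. Fabp7 had at most −0.62 on nerve arrays. Of the DRG neuron list, 8 of 16 genes on the array were well above background on no cord array, Scn10a, Scn11a, Trpv1 and Trpa1 among them. The summed level of the 8 that were measured was 37.1 and 17.4 on the lumbar and 37.3 and 24.9 on the thoracic arrays for wild-type and nude rats. Of these 8, 1 was called, Htr3a, a serotonin receptor subunit, beside 8.62% of all genes. The part that attached root tissue had in the Schwann cell result was not tested.

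**Figure D3:**
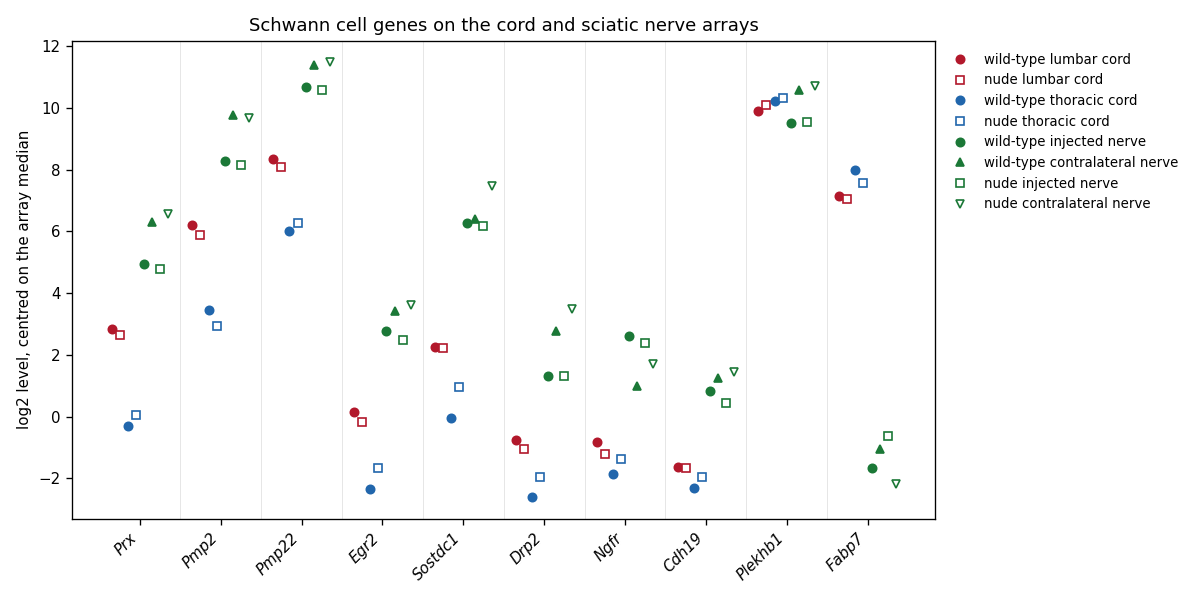
Log2 levels of 10 Schwann cell genes on the 4 cord arrays and the 4 sciatic nerve arrays. For Prx, Pmp2, Pmp22, Egr2, Sostdc1 and Drp2 the lumbar points (red) lie between the thoracic (blue) and the nerve points (green), while Fabp7 is bright in the cord and at or below −0.62 on the nerve arrays.

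The 20 genes that were at least 2-fold higher in both rat types and were not Hox genes shared this pattern. On all 20, each nerve array lay above each cord array, which held for 29.9% of all genes measured. Each DRG array also lay above each cord array for 20 of them, beside 22.7% of all genes. Some are known parts of the peripheral nerve: Cldn19, a tight junction protein of Schwann cells, was 5.14-fold higher (adjusted p = 0.00015), and gliomedin, Gldn, which gathers sodium channels at peripheral nodes of Ranvier, was 3.53-fold higher (adjusted p = 0.00156). Cnmd, the cartilage protein chondromodulin, had levels of 3.87 and 3.65 against 0.85 and 1.00 and was 7.17-fold higher (adjusted p = 7.38e-05). Myoc, the secreted protein myocilin, was 4.15-fold higher (adjusted p = 0.00114).

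Per1, a repressor of the circadian clock that glucocorticoids also induce, had levels of 3.37 and 3.23 in the lumbar cord of wild-type and nude rats against 0.49 and 0.75 in the thoracic cord. It was 6.38-fold higher (adjusted p = 0.00013), and its levels were 5.45 to 6.94 on the nerve arrays. Of 18 measured glucocorticoid and clock genes it was the only one called higher (5.56%), and 2 were called lower (11.1%). Among all genes these shares were 2.25% and 6.37%. Sgk1, a kinase induced by glucocorticoids, and Ciart, another clock repressor, were called lower, by 1.42-fold and 1.62-fold. The amino acid transporter Slc36a2 was 6.32-fold higher and Mrap, the accessory protein of the ACTH receptor, 4.53-fold higher (adjusted p = 0.000345 and 0.000413). Gas2l3, a cytoskeletal linker, and the cartilage proteoglycan Epyc were at least 4.89-fold and at least 3.67-fold higher (adjusted p = 0.00204 and 0.0161), both being well above background in the lumbar cord only.

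Myelin genes of the central nervous system went the other way. Of 26 measured oligodendrocyte and myelin genes, 21 were called lower in the lumbar cord and 0 higher, beside the 6.37% called lower among all genes. The median log2 ratio was −0.58 for wild-type and −0.59 in nude rats, and 25 of the 26 were lower in both, beside 46.3% of all genes. Fa2h, which makes the hydroxylated fatty acids of myelin lipids, had levels of 5.50 and 5.52 in the lumbar cord against 6.23 and 6.49 in the thoracic cord and was 1.80-fold lower (log2 ratio −0.85 ± 0.09, adjusted p = 0.00303). Hapln2, a matrix linker at central nodes of Ranvier, was 1.77-fold lower (adjusted p = 0.00151). Enpp2, a secreted enzyme that makes lysophosphatidic acid, was 1.71-fold lower (adjusted p = 0.00724).

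Mbp, the source of the injected peptide, was the exception. It had levels of 11.99 and 12.05 in the lumbar and 11.43 and 12.09 in the thoracic cord of wild-type and nude rats, so that its log2 ratio was 0.56 for wild-type and −0.04 in nude rats and did not pass the test (adjusted p = 0.218). Mbp is also a component of peripheral myelin, and its levels on the nerve arrays were 12.24 to 12.61. Of 10 measured genes of oligodendrocyte precursors, 5 were called lower and 0 higher, beside 6.37% and 2.25% of all genes, among them the secreted protein C1ql1, by 1.88-fold (adjusted p = 0.00849), and the sialidase Neu4, by 1.44-fold (adjusted p = 0.0495). Those called lower were 1 after cyclic loess and 2 in the authors' values, where 453 and 544 of all genes were called lower, against 674.

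Genes of cholesterol synthesis, which supplies a main lipid of myelin, were also lower. Of 22 measured genes 16 were called lower and 0 higher, beside 6.37% and 2.25% of all genes, with a median log2 ratio of −0.61 for wild-type and −0.45 in nude rats, and 20 were lower in both, beside 46.3% of all genes. Lss, which closes the ring of lanosterol, had levels of 4.16 and 4.42 in the lumbar cord against 5.06 and 5.52 and was 2.0-fold lower (adjusted p = 0.00184). Sqle, the squalene epoxidase, and Cyp51, the next oxidase, were both 1.66-fold lower (adjusted p = 0.00288 and 0.00795). Scd, the desaturase that makes monounsaturated fatty acids, was 2.25-fold lower (adjusted p = 0.000516).

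Among 22 astrocyte genes, 5 were called lower and 0 higher, beside 6.37% and 2.25% of all genes, and the list's median log2 ratio of 0.05 for wild-type and −0.22 in nude rats lay on both sides of 0. Gfap had levels of 4.83 and 4.40 in the lumbar cord against 6.35 and 5.50 in the thoracic cord and was 2.48-fold lower (log2 ratio −1.31 ± 0.11, adjusted p = 0.00151). The transcriptional regulator Id3 was 1.71-fold lower, the water channel Aqp4 1.58-fold and the calcium-binding protein S100b 1.43-fold lower (adjusted p = 0.0127, 0.00467 and 0.00653). The fifth was Aldh1l1, a folate enzyme, which was 1.41-fold lower (adjusted p = 0.0224).

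Other genes were at least 2-fold lower in both rat types. Lgals3, the galectin of phagocytes, had levels of 4.36 on both lumbar arrays against 6.48 and 5.74 on the thoracic arrays and was 3.37-fold lower (adjusted p = 0.00183), although its levels on the nerve arrays, 8.45 to 9.88, were higher than in either segment. Spag5, a protein of the mitotic spindle, was 2.98-fold lower, Cidea, a lipid droplet protein, 2.60-fold and the small heat shock protein Hspb1 2.59-fold lower (adjusted p = 0.0023, 0.00146 and 0.000345). Pla2g7, which degrades platelet-activating factor, was 2.35-fold lower (adjusted p = 0.00146). The homeobox gene Nkx6-1, a gene of the ventral cord, had levels of −0.85 and −1.25 against 0.36 and −0.03 and was 2.32-fold lower (adjusted p = 0.00849). For all of these genes both lumbar arrays lay below both thoracic arrays, which their choice by 2-fold in both rat types makes likely. Of the 20 genes, 15 had their highest mean level in the cord rather than the nerve or the DRG, as had 4509 of all 10574 genes.

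**Figure D4:**
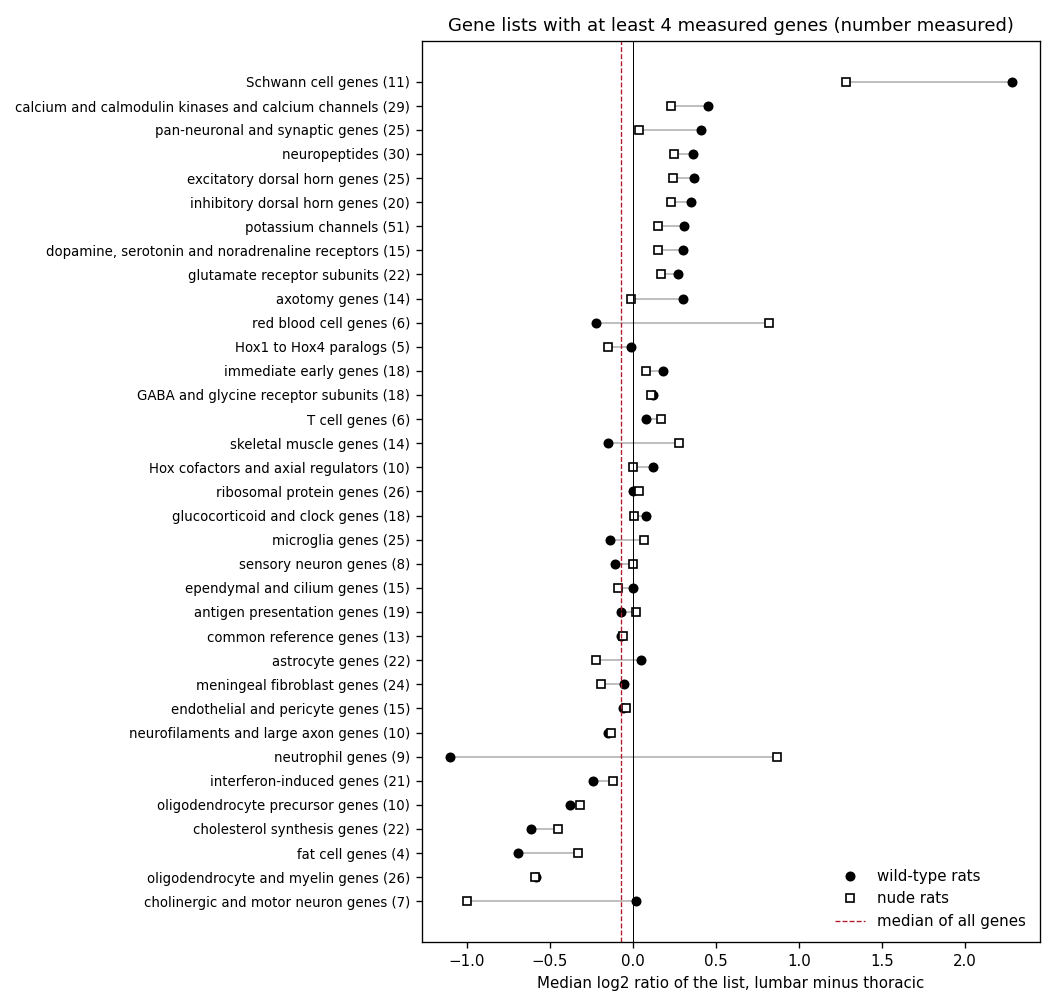
Median log2 ratio of lumbar to thoracic cord for each gene list with at least 4 measured genes (number in brackets), in wild-type rats (filled) and nude rats (open), with the median of all genes dashed. Schwann cell genes are highest at 2.28 and 1.28, dorsal horn lists lie between 0.23 and 0.37, central myelin lies at −0.58 and −0.59, cholesterol synthesis at −0.61 and −0.45, and the neutrophil, red blood cell and cholinergic lists differ between the rat types.

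Some genes of dorsal horn neurons were called higher in the lumbar cord, and most did not pass the test. Of 25 measured genes of excitatory interneurons, 7 were called higher and 1 lower, beside 2.25% and 6.37% of all genes, and the median log2 ratio was 0.37 for wild-type and 0.24 in nude rats. Gpr83, a receptor of dorsal horn projection neurons, had levels of 1.93 and 2.27 against 1.06 and 1.61 and was 1.70-fold higher (adjusted p = 0.0111). Grp, the gastrin-releasing peptide of itch circuits, was 1.58-fold higher, at 2.48 and 3.05 against 1.76 and 2.45 (adjusted p = 0.0124). Tac1, the precursor of substance P, had levels of 6.78 and 6.75 against 5.85 and 6.38 and was 1.56-fold higher (adjusted p = 0.0225). Its receptor Tacr1 had a mean log2 ratio of 0.69 ± 0.17 and did not pass the test (adjusted p = 0.0522). The count of 7 was 13 after scaling to the 75th percentile or quantile normalization and 4 after normexp correction. Over all genes those called higher were 560, 469 and 206 in these settings, against 238.

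Of 20 genes of inhibitory interneurons, 3 were called higher and 1 lower, beside 2.25% and 6.37% of all genes, with medians of 0.35 and 0.23. Those called higher were 7 after scaling to the 75th percentile, 8 after quantile normalization and 6 in the authors' values. Pdyn and Penk, the precursors of dynorphin and enkephalin, were 1.61-fold and 1.54-fold higher (adjusted p = 0.00993 and 0.00857), and the transcription factor Tfap2b was 1.82-fold higher (adjusted p = 0.0177). Galanin, Gal, went the other way, at 4.77 and 4.80 against 5.79 and 5.41, and was 1.76-fold lower (adjusted p = 0.00765). Slc32a1 had log2 ratios of 0.85 for wild-type and 0.08 in nude rats and did not pass the test (adjusted p = 0.117).

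Over 30 measured neuropeptide genes, several of which stand in the lists above, 11 were called higher and 2 lower, beside 2.25% and 6.37% of all genes. Vgf, a granule protein that neuronal activity induces, was 2.04-fold higher (adjusted p = 0.0275), with log2 ratios of 1.56 for wild-type and 0.50 in nude rats. The neuropeptide counts were 6 higher and 4 lower after normexp background correction. In that setting 206 of all genes were called higher and 574 lower, against 238 and 674. Calmodulin-dependent kinases and calcium channels gave 6 called higher and 1 lower of 29, with Camk2b, a subunit of CaM kinase II, 1.81-fold higher (adjusted p = 0.0139), its activator kinase Camkk2 1.60-fold higher (adjusted p = 0.0331) and the calcium channel Cacna1c 1.56-fold higher (adjusted p = 0.0468). The 6 called higher were 10 after scaling to the 75th percentile, 9 after quantile normalization and in the authors' values, and 2 with the probes of each gene averaged.

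Receptor and channel genes are read against the 2.25% of all genes called higher and 6.37% called lower. Of 18 measured subunits of GABA and glycine receptors 4 were called higher, the glycine receptor subunits Glra1 and Glra3 by 1.50-fold and 1.51-fold (adjusted p = 0.0188 and 0.0263), the GABA-A subunit Gabra3 by 1.40-fold and the GABA-B subunit Gabbr2 by 1.35-fold (adjusted p = 0.0426 and 0.0278). After normexp correction 2 of the 18 were called higher. Of 22 glutamate receptor subunits 0 were called by limma. An unadjusted p under 0.05 was found for 12 of them, beside 2904 of all 10574 genes. In both rat types 15 were higher, beside 24.1% of all genes. Grm5 had the largest mean log2 ratio, 0.78 ± 0.23 (adjusted p = 0.0838). Those called higher were 6 after scaling to the 75th percentile, 4 after quantile normalization, 2 after normexp correction and 1 after cyclic loess or in the authors' values. Of 51 potassium channel genes 3 (5.88%) were called higher and 1 (1.96%) lower, with Kcnd3, a channel of A-type currents, 1.68-fold higher (adjusted p = 0.0182). The count was 10 higher after either scaling to the 75th percentile or quantile normalization, where 560 and 469 of all genes were called higher, against 238. The serotonin receptor subunit Htr3a was 1.42-fold higher and Htr5b at least 2.31-fold higher (adjusted p = 0.0372 and 0.0431), the latter seen in the lumbar cord only.

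Genes common to neurons were counted apart. Of 25 pan-neuronal and synaptic genes 3 were called higher and 1 lower, beside 2.25% and 6.37% of all genes, with a median of 0.41 for wild-type and 0.04 in nude rats. Those called higher were 7 after scaling to the 75th percentile, 6 after quantile normalization and 1 with probes averaged. Snap25 had log2 ratios of 0.28 and 0.00 (adjusted p = 0.338), and Slc17a6 had 0.24 and 0.28 (adjusted p = 0.0813). Of 10 neurofilament and large axon genes 2 were called lower, Sncg, a synuclein of large axons, by 1.72-fold and the matrix protein Spp1 by 1.42-fold (adjusted p = 0.00427 and 0.0187). Among 26 ribosomal protein genes 0 were called by limma, with medians of 0.00 and 0.04. An unadjusted p under 0.05 was found for 0 of them, beside 2904 of all 10574 genes.

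Genes of cholinergic and motor neurons had, over 7 measured genes, a median log2 ratio of 0.02 for wild-type and −1.0 for nude rats. That difference was not tested. Calca, the precursor of CGRP, had levels of 3.59 and 3.57 in the lumbar and thoracic cord of wild-type rats but of −0.40 and 2.02 in nude rats. The nude lumbar array was thus the lowest of the 4. Calcb, its sister gene, had log2 ratios of −0.18 and −1.78 (adjusted p = 0.0961), and Slc5a7, the choline transporter, had −0.36 and −1.08 and was called lower (adjusted p = 0.0424). Calca was bright on the DRG arrays, at 8.54 to 8.91, and DRG neurons and motor neurons are both known to make it. Lhx4, a homeobox gene of motor neuron development, was 1.90-fold lower (adjusted p = 0.0346).

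Lists for immune cells of the cord and for antigen presentation are read against the same shares, 2.25% and 6.37%. Their counts at an unadjusted p under 0.05 are read against 2904 of all 10574 genes. Of 25 measured microglia genes 1 (4.0%) was called, C1qb, a chain of complement C1q, which was 1.27-fold higher (adjusted p = 0.0317), and Aif1 had log2 ratios of −0.03 and 0.19 (adjusted p = 0.6), its probes differing in sign. Of the microglia genes 3 were called higher after scaling to the 75th percentile, quantile normalization or cyclic loess and in the authors' values. Of 19 antigen presentation genes 0 were called by limma and 1 had an unadjusted p under 0.05, with medians of −0.07 for wild-type and 0.02 in nude rats, and Cd74, the invariant chain of class II molecules, had ratios of −0.30 and 0.04. Of 18 T cell genes on the array 11 were well above background on no cord array of either rat type, and 0 of the 6 measured were called by limma, with 1 at an unadjusted p under 0.05. Of 21 interferon-induced genes 2 (9.52%) were called lower, Isg15 by 1.40-fold and Ifi27 by 1.27-fold (adjusted p = 0.0266 and 0.02). Atf3, a marker of cut axons, had a mean log2 ratio of 0.27 ± 0.18 (adjusted p = 0.375).

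The 2 rat types disagreed for 62 genes (0.586%), which were at least 2-fold in 1 rat type and of opposite sign, at any size, in the other. Only 6 genes were at least 2-fold in both rat types with opposite sign. Of the 62, 46 were higher in the lumbar cord of nude rats and lower in that of wild-type rats, and 16 ran the other way. Clec1b, a receptor of platelets, had levels of 0.52 lumbar and 1.73 thoracic in the wild-type, and of 3.47 and 0.98 in the nude cord. Pf4, the platelet chemokine, had 3.30 and 4.42 in wild-type and 5.38 and 3.60 in nude rats. S100a8, a calcium-binding protein of neutrophils, had −0.80 and 0.92 in wild-type and 2.19 and 1.37 in nude rats. In each case the nude lumbar array was the highest of the 4 and the wild-type lumbar array the lowest.

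The same order held for Myl11 and Myh1, the myosin genes of fast skeletal muscle, although Myh1 was not well above background on the wild-type lumbar array, so that its level there is a limit. Myl11 had levels of −0.12 and 0.65 in the lumbar and thoracic cord of wild-type animals, against 2.84 and 0.75 in nude ones. Over whole lists, the median log2 ratio of 9 neutrophil genes was −1.10 for the wild-type and 0.87 for the nude cord, and that of 6 red blood cell genes was −0.22 and 0.82. The summed level of the neutrophil list was 4.92 and 10.7 in the lumbar and thoracic cord of wild-type animals, against 31.0 and 16.1 in nude ones. For the red blood cell list these were 9150 and 9660 in wild-type and 14700 and 11200 in nude rats. Of 14 skeletal muscle genes 0 were called by limma, 1 had an unadjusted p under 0.05, and the medians were −0.15 and 0.28. By mean level, 44 of the 46 genes were brightest on nerve or DRG arrays, as were 4600 (nerve) and 1465 (DRG) of all 10574 genes. The part that blood, marrow or muscle left on the dissected tissue had in these values was not tested.

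**Figure D5:**
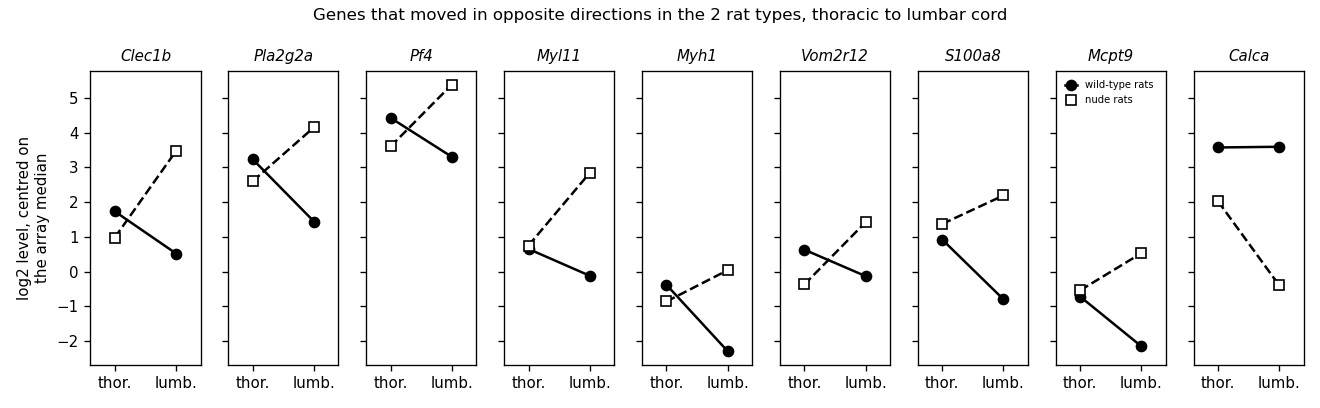
Log2 levels in thoracic and lumbar cord of the 8 genes with the largest difference between the rat types among those that disagreed, and of Calca, with wild-type rats as filled circles and nude rats as open squares (1 array per point). The lines cross or diverge: the first 8 genes were higher in the lumbar cord of nude rats and lower in that of wild-type rats, and Calca was level in wild-type and lower in nude rats.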

How the data were processed

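Per the file headers, the authors extracted the spot intensity values with Agilent Feature Extraction 10.7.3.1, which subtracted the local background and corrected spatial trends, with no step between arrays. Other deposited columns hold flags of 0 or 1 per spot (well above background, saturated, outlier). The deposited log2 values were normalized by the authors in GeneSpring GX. Outlier spots were left out, spots of a probe averaged and log2 signals centred on each array's median. Of 30367 probes, 19805 were well above background on both lumbar or both thoracic arrays. Signals were raised to the lowest signal well above background on that array. Probes were named through RefSeq accessions in GRCr8, and a gene took its brightest probe. Of 1714 genes with several probes, 500 had probes of different sign. limma 3.58.1 (R 4.3.3) fitted segment with rat type as a block, with an intensity trend and Benjamini-Hochberg adjustment over all probes. On simulated data, 94 of 100 changes of 2-fold and 100 of 100 of 4-fold were recovered, with 20 false calls beside these, over 19805 probes. The simulated spread did not depend on brightness, on which the real calls rest, so these rates do not carry over to them. Lists and named genes were chosen with earlier results of these data known. Named genes were the 15 highest and 15 lowest among those 2-fold in both rat types, the 8 largest disagreements, all measured Hox genes, the 4 largest ratios of each of 38 lists, and defining markers, with the other genes of the 2-fold set and the other called genes of short counts added after their values were seen. The number of arrays limits the precision. The p-values rest mainly on the spread of other probes of like brightness, and only in part on the probe's own 2 pairs of pooled arrays. The difference between those pairs also holds strain, day and slide, and may be technical. Pairing comes from the rat type, whose cord arrays share a slide. The median signal on the 4 cord arrays was 53.9 to 74.9, with 69.7% to 74.7% of spots well above background and 0 saturated. The alternatives tried were other scalings, background correction, filters, floors and models. Some members of the lists are counted but not reported here by name.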

Additional observations from a re-analysis of the deposited data

Results flagged for a closer look

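Among the genes and lists named, those below had log2 ratios of opposite sign, at any size, in the 2 rat types, which differed by at least 2-fold. Each value is the log2 ratio of lumbar to thoracic cord in wild-type rats less that in nude rats. None of these differences was tested, because each rat type had 1 array per segment, and day, strain and slide cannot be told apart from rat type.

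Genes of platelets and secreted phospholipase had the lowest values, −3.70 for Clec1b, −3.34 for Pla2g2a and −2.90 for Pf4. The skeletal muscle genes Myl11, Myh1, Atp2a1 and Tnni2 had −2.86, −2.81, −2.13 and −1.47. The value of Myh1 is a limit, since it was not well above background on the wild-type lumbar array. The neutrophil genes S100a8, Retnlg and Camp had −2.54, −2.05 and −1.63, and the neutrophil list as a whole had a difference of medians of −1.97. For the red blood cell genes Ahsp, Slc4a1 and Hbb-b1 the values were −2.01, −1.15 and −1.01, and for the red blood cell list −1.04. The vomeronasal receptor Vom2r12 had −2.55 and the mast cell protease Mcpt9, also not well above background on 1 lumbar array, had −2.50. In the other direction, Calca had 2.44, the oligodendrocyte precursor gene Cspg5 had 1.03 and the cholinergic and motor neuron list had 1.02. Each of these was near level in 1 rat type. The log2 ratio in wild-type rats was 0.02 for Calca and, as a median, 0.02 for the cholinergic list. That of Cspg5 in nude rats was −0.05.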

How the results depend on the processing

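The calls depended most on the model. For probes, 1457 were called, against 65 without the rat type block, 0 without the intensity trend (4191 at an unadjusted p under 0.05), 2686 at an adjusted p under 0.1 and 3228 without a filter on dim probes. For genes, 912 were called, against 44, 0, 1637 and 1901 in the same order. Under the other alternatives of scaling, background, filter, floor, flags and, for genes, probe choice, the counts were within 1.5 times. Of the 43 genes at least 2-fold in both rat types, all called, 41 kept their call under each of the 10 processing alternatives in which they were measured, none changed sign, and 26 kept it without the rat type block. Normexp correction was run on median signals in place of the planned mean signals. After it, 83 genes were at least 2-fold in wild-type and 44 in nude rats, 23 were so in both in the same direction, and 18 disagreed. At 3-fold these were 37, 30, 15 and 13. Leaving out a rat type leaves no degree of freedom, so counts of calls have no such value. The median of the Hox1 to Hox4 list was 0.15 over the mean ratios but −0.15 to −0.01 in the rat types alone, and that of the fat cell list, −0.54, was 0.01 without a filter on dim probes. The cause of these changes was not tested. For Hoxa11, Egr2 and other dim genes, signal over background limits the ratio.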

Other observations

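Other cell types of the cord are read against 2.25% of all genes called higher and 6.37% called lower. Of 15 measured genes of ependymal cells and cilia 3 were called lower and 1 higher in the lumbar cord. Foxj1, the regulator of motile cilia, was 1.58-fold lower, the dynein chain Dnali1 1.59-fold and the ciliary filament gene Tekt1 1.78-fold lower (adjusted p = 0.0194, 0.0193 and 0.0426 by limma). Nes, the filament of progenitors and reactive glia, was 1.63-fold higher (adjusted p = 0.00891), and it was brighter on nerve arrays, at 5.64 to 6.58, than in the cord, at 2.50 to 3.49. Of 24 meningeal and fibroblast genes 2 were called higher, Lum and Dcn, collagen-binding proteoglycans, by 1.68-fold and 1.52-fold (adjusted p = 0.0137 and 0.0107), and 4 lower, with the growth factor Igf2 1.69-fold lower (adjusted p = 0.00507). Dcn had levels of 11.12 to 11.37 on nerve arrays. Of 15 endothelial and pericyte genes 2 were called lower, the VEGF receptor Flt1 (adjusted p = 0.0316) and the glucose transporter Slc2a1, the latter by 1.50-fold (adjusted p = 0.00884). Flt1 had levels of −2.28 and −1.45 in the lumbar and −1.45 and −0.03 in the thoracic cord of wild-type and nude rats, and was not well above background on 1 lumbar array, so no fold is given.

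The next lists are also read against 2.25% of all genes called higher and 6.37% called lower. Of 18 immediate early genes, 1 (5.56%) was called higher, Egr2, which the Schwann cell list also holds. When only genes well above background on all 4 arrays were fitted, 15 were measured and 0 were called. Fos had log2 ratios of 0.71 for wild-type and 0.23 in nude rats (adjusted p = 0.134), and Arc had 0.46 and 0.23 (adjusted p = 0.165). Of 14 genes that rise in neurons after axons are cut, 1 was called higher, Nts, and 3 lower, Gal, Csf1 and Stmn4. Csf1, a growth factor for microglia, was 1.70-fold lower (adjusted p = 0.00778). Among 13 common reference genes 1 (7.69%) was called, the transferrin receptor Tfrc, which was 1.58-fold lower (adjusted p = 0.00849). Actb and Gapdh had mean log2 ratios of −0.22 and 0.11 and did not pass the test, the probes of Gapdh differing in sign.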
